A study of Mus musculus with 144 samples.

Results

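Blood microRNA (miRNA) was compared between crocidolite mice at month 12 and crocidolite mice at month 1 after exposure. The 16 arrays of this comparison, 8 at month 12 and 8 at month 1, were taken from the 144 arrays of the series by the month and treatment given in each sample's label. Each array held the RNA of 1 mouse. All mice were male C57BL/J6 and were 7 weeks old when obtained, so the month 12 mice were also older than the month 1 mice, and age and time after exposure cannot be told apart within the crocidolite mice. The crocidolite mice had received 120 µg crocidolite asbestos, the positive control of the study, and another 8 crocidolite mice were sampled at month 6. The other exposures were multi-walled carbon nanotubes (MWCNT) at 1, 10, 40 or 80 µg and, as the negative control, dispersion medium without particles (DM), each with its own 8 mice at months 1, 6 and 12.

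Crocidolite is an amphibole asbestos whose thin, durable fibres persist in the lung and are known for causing fibrosis and mesothelioma. MicroRNAs are short RNAs that pair with messenger RNAs, mainly through the seed near their 5′ end, and lower the stability or translation of those messages. Blood miRNA comes from red cells, platelets and white cells as well as from plasma, so in a bulk blood sample a change in the number of cells of a type and a change in the RNA per cell cannot be told apart. The deposited files pair no probe identifier with a miRNA name. Probes are therefore given by identifier or by their rank among the called probes, no miRNA sequence is printed, and blood cell marker miRNAs were not looked up.

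The arrays were multi-species miRNA arrays on which each mouse probe was spotted 3 times. Levels below are normalized log2 intensities after background correction, so a difference of 1 is a change by a factor of 2 in intensity. Of 1262 mouse probes, 742 were tested, namely those that passed the detection threshold in all 8 mice of 1 or more groups. Of the tested probes, 594 were above threshold on all 16 crocidolite arrays of months 12 and 1. Those 16 arrays correlated with each other over probes with r from 0.98 to 1.00, on 16 slides scanned on 6 days. They lay at slide position B or D, with 4 and 4 arrays at month 12 and 5 and 3 at month 1.

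Array brightness before scaling, the median log2 intensity of the mouse probes, averaged 6.50 ± 0.09 at month 12 and 6.56 ± 0.19 at month 1 (SD, n = 8 each). The difference was -0.07 (exact permutation test, two-sided, p = 0.465). The number of mouse probes above threshold was 724 to 929 per array at month 12 and 761 to 1055 at month 1, with a difference in means of -11.8 probes (exact permutation test, two-sided, p = 0.808). Replicate 4 of month 1 was the brightest of these arrays and had the most probes above threshold. Without it the month 12 arrays averaged 20.3 more probes above threshold than the month 1 arrays (exact permutation p = 0.508). The sign also turned without month 12 replicate 6 (1.80 more probes at month 12) and with a lower threshold (1 more), so it was not stable.

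Few miRNA probes differed between the months, and the differences were led by a pair of downregulated probes, called the first and second downregulated probe in order of p. A probe was called at p under 0.05, Benjamini-Hochberg adjusted p under 0.10 and a fold of 1.5 or more in limma, the thresholds of the study's methods. By this rule 10 of 742 probes (1.35%) differed between month 12 and month 1, of which 5 (0.674%) were upregulated and 5 (0.674%) were downregulated at month 12. Their fold sizes ran from 1.51 to 3.10. The unadjusted p was under 0.05 for 84 probes, 42 higher and 42 lower. The median difference over all 742 probes was -0.01 on the log2 scale.

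These counts moved with the scaling and with single mice. With background subtraction and the trimmed-mean scaling of the study's methods 21 probes were called, 17 higher and 4 lower, and in the deposited table likewise 21, 17 higher and 4 lower, with 8 of the 10 probes above among them in each. On these scales the median of all 742 probes lay 0.10 and 0.11 higher at month 12, and each change on them includes that shift. With the same scaling after the main background correction, 7 probes were called higher and 3 lower. Without month 12 replicate 3, 5 or 8 there were 4, 5 and 5 called probes, and without month 1 replicate 5 or 7 there were 4 and 6. Both leading downregulated probes were called in all of the alternatives and with each of the 16 arrays left out in turn, and were the only 2 of the 10 for which this held.

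**Figure D1:**
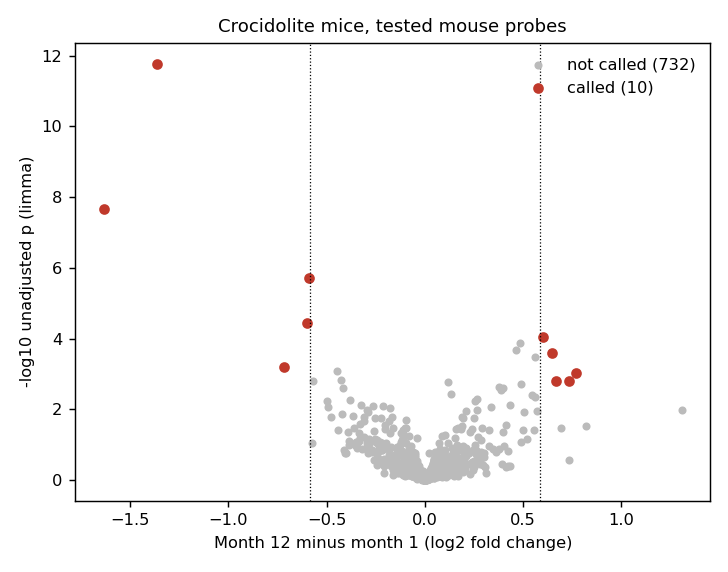
Difference between month 12 and month 1 in crocidolite mice (x axis, log2 fold change) against −log10 of the unadjusted limma p (y axis) for 742 probes, with dotted lines at a fold of 1.5. The 10 called probes are red, and the 2 at the far left are the first and second downregulated probes.

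The first downregulated probe had the smallest p of all. Its normalized level had a lowest, median and highest value of 8.11, 8.31 and 8.53 in the 8 month 12 mice, against 9.17, 9.74 and 10.03 in the 8 month 1 mice. Every month 12 mouse lay below every month 1 mouse, with a gap of 0.64 on the log2 scale. The means were 8.31 ± 0.16 at month 12 and 9.67 ± 0.26 at month 1 (SD, n = 8 each), a log2 fold change of -1.36 ± 0.17 (SE), or 2.57-fold lower at month 12 (limma, adjusted p = 1.23e-09). The groups were also apart before any scaling, at 179 to 559 background-subtracted intensity units at month 12 and 712 to 1268 units at month 1.

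The second downregulated probe fell by the most. Its lowest, median and highest levels were 8.65, 9.22 and 9.96 in month 12 mice, against 10.20, 10.83 and 11.39 in month 1 mice. The groups did not overlap, although the mice of each month were spread more widely than for the first downregulated probe. The means were 9.23 ± 0.41 at month 12 and 10.87 ± 0.40 at month 1 (SD, n = 8 each). The log2 fold change was -1.63 ± 0.27 (SE), or 3.10-fold lower at month 12 (limma, adjusted p = 7.91e-06). Before scaling, the intensities were 452 to 909 units at month 12 and 1559 to 3517 units at month 1.

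Compared with the first and second downregulated probes, the other downregulated probes moved by less, at folds of 1.51 to 1.65. So did the upregulated probes, at folds of 1.52 to 1.70. Probe 3261r, the first of them by p, had a lowest, median and highest level of 12.86, 13.24 and 13.58 in month 12 mice, against 12.38, 12.65 and 13.07 in month 1 mice. Of the month 12 mice, 7 lay above every month 1 mouse, and the groups overlapped by the remaining mouse. The log2 fold change was 0.60 ± 0.15 (SE; limma, adjusted p = 0.0134), which is 1.52-fold and close to the fold limit. Leaving out month 12 replicate 3, 5 or 8 or month 1 replicate 2, 3 or 5 took it below the limit, at log2 fold changes of 0.56 to 0.58. It was also below the limit, and not called, with trimmed-mean scaling after normexp (0.56), with background subtraction and the study's trimmed-mean scaling (0.57) and in the deposited table (0.58). Its intensities before scaling overlapped widely, at 5384 to 23831 units at month 12 and 5283 to 11788 units at month 1.

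The second upregulated probe had a lowest, median and highest level of 12.14, 12.55 and 13.15 in month 12 mice, against 11.69, 11.97 and 12.22 in month 1 mice. Here too 7 of the 8 month 12 mice lay above every month 1 mouse. The log2 fold change was 0.65 ± 0.17 (SE; limma, adjusted p = 0.0238). Before scaling its intensities were 3486 to 17514 units at month 12 and 3122 to 6579 units at month 1, so for probe 3261r and the second upregulated probe the separation of the months appeared only after the arrays were put on 1 scale. Leaving out month 12 replicate 3 or 5 took the second upregulated probe below the fold limit, at log2 fold changes of 0.58 and 0.57 with limma adjusted p of 0.0892 and 0.106.

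**Figure D2:**
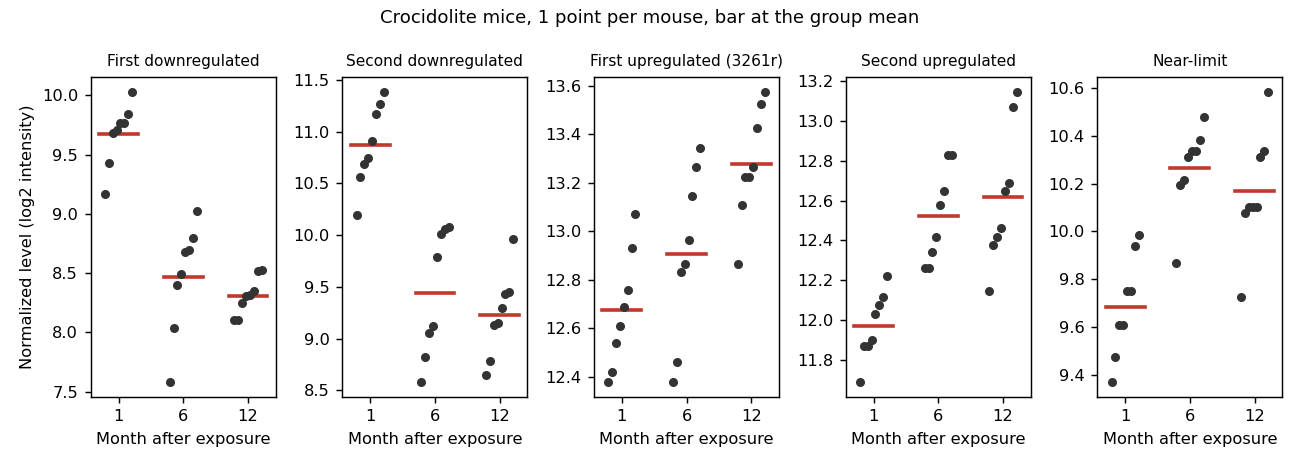
Normalized log2 level (y axis) of 5 probes in the crocidolite mice of months 1, 6 and 12 (x axis), with 1 point per mouse, 8 per month, and a bar at the mean. For the first and second downregulated probes all month 12 and all month 6 mice lie below all month 1 mice, and for each of the other probes shown 7 of 8 month 12 mice lie above all month 1 mice.

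The remaining 6 called probes comprised 3 higher and 3 lower at month 12. Over all 10, each of the 8 month 12 mice lay beyond the month 1 median in the direction of the change. The probes had been called from these same values, so this adds no separate evidence. For 5 of the 10 probes, 4 of them downregulated, the values of the months did not overlap at all, and these 5 were the only tested probes (0.674%) whose values did not overlap. All 10 were above threshold on all 144 arrays, and none had a saturated spot on the 16 crocidolite arrays. The SD within a month ranged from 0.16 to 0.41 at month 12 and from 0.17 to 0.42 at month 1 for these probes, beside medians of 0.17 at month 12 and 0.16 at month 1 over all tested probes.

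A further 12 probes passed the adjusted p without reaching the fold limit, 8 higher and 4 lower, which together with the called probes made 22 (2.96%). The fold just inside the limit was 1.51 and that just outside it was 1.48. One of the 12 was given because earlier results on DM mice had named it. It is called the near-limit probe here, although its fold of 1.40 was not the one just outside the limit. Its lowest, median and highest levels were 9.73, 10.10 and 10.58 in month 12 mice, against 9.37, 9.68 and 9.99 in month 1 mice, and 7 of 8 month 12 mice were above every month 1 mouse. The log2 fold change was 0.48 ± 0.12 (SE; limma, adjusted p = 0.0161), and the fold limit was not reached, so it was not called.

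A large difference was not always a called one. Of 14 probes with a fold of 1.5 or more, 4 were not called, all higher at month 12. The highest log2 fold change of all tested probes, 1.31 ± 0.50 (SE), belonged to one of these (limma, adjusted p = 0.203). Its levels were 7.35 to 10.45 in month 12 mice and 6.72 to 8.08 in month 1 mice, and its SD was 1.09 at month 12 and 0.43 at month 1. No tested probe was above threshold on all 8 arrays of one month and on 2 or fewer of the other.

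The months were also compared within scan days and slide positions. The scan days that held arrays of both months were 2 in number, with 2 arrays at month 12 and 2 at month 1 on one day, and 2 at month 12 and 1 at month 1 on the other. The first downregulated probe differed by -0.88 and -1.49 within these days and by -1.40 and -1.32 within positions B and D. The second downregulated probe differed by -1.66 and -1.73 within the days and by -1.69 and -1.63 within the positions. Probe 3261r differed by 0.43 and 0.28 within the days and by 0.63 and 0.67 within the positions.

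The second upregulated probe differed by 0.58 on the first of those days but by only 0.04 on the second, and by 0.73 and 0.60 within positions B and D. All 10 called probes kept their direction within both days and both positions. These are parts of the same arrays that gave the calls, so this agreement was largely set by the choice of probes. With scan day as a term in the fit, 6 probes were called, 4 higher and 2 lower, and 5 of these were among the 10. The 2 lower probes were the first (log2 fold change -1.33, limma adjusted p = 1.90e-08) and second (-1.68, limma adjusted p = 4.14e-06). Probe 3261r (0.59, limma adjusted p = 0.0121) and the second upregulated probe (0.65, limma adjusted p = 0.0316) also stayed called. With position as a term the same 10 probes were called.

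Month 6 was used to ask when the levels moved. Both leading downregulated probes were already low at month 6. The lowest, median and highest levels of the first were 7.58, 8.58 and 9.03 in the 8 month 6 mice, all below every month 1 mouse, and the log2 fold change from month 1 was -1.21 ± 0.17 (SE; limma, adjusted p = 1.29e-07). Those of the second were 8.58, 9.46 and 10.08, again all below every month 1 mouse, with a log2 fold change of -1.43 ± 0.27 (SE; limma, adjusted p = 0.000258). These were the only 2 probes called between month 6 and month 1 (0.27%, both lower), and 79 probes had an unadjusted p under 0.05. In the deposited values, 15 probes were called higher and 2 lower, and with background subtraction and trimmed-mean scaling 24 higher and 2 lower, where the median of all probes lay 0.25 and 0.26 higher at month 6. Both probes were called on these scales too.

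Between month 12 and month 6 the first downregulated probe differed by -0.15 (95% interval -0.50 to 0.19) and the second downregulated probe by -0.21 (95% interval -0.75 to 0.34). The later step was therefore not detectable at this number of arrays for either probe. The month 12 mice were spread less widely than the month 6 mice for both, with an SD of 0.16 at month 12 and 0.46 at month 6 for the first downregulated probe, and of 0.41 at month 12 and 0.61 at month 6 for the second.

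The estimates of the leading upregulated probes at month 6 differed in size, and their courses were not compared by a test. The second upregulated probe had a lowest, median and highest level of 12.26, 12.50 and 12.83 at month 6, all above every month 1 mouse, and a log2 fold change from month 1 of 0.55 ± 0.17 (SE; limma, adjusted p = 0.124), which did not pass. Probe 3261r was at 12.38, 12.91 and 13.35 at month 6, with a log2 fold change from month 1 of 0.23 ± 0.15 (SE; limma, adjusted p = 0.577) and from month 6 to month 12 of 0.37 ± 0.15 (SE; limma, adjusted p = 0.624). Neither step of probe 3261r passed alone. The near-limit probe at month 6 was 1.49-fold above month 1 (log2 fold change 0.58 ± 0.12, SE; limma, adjusted p = 0.00134), just short of the fold limit, which it reached in 9 of 17 alternatives and without any 1 of 7 arrays, and was 0.10 lower at month 12 than at month 6 on the log2 scale (95% interval of the difference -0.34 to 0.14).

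**Figure D3:**
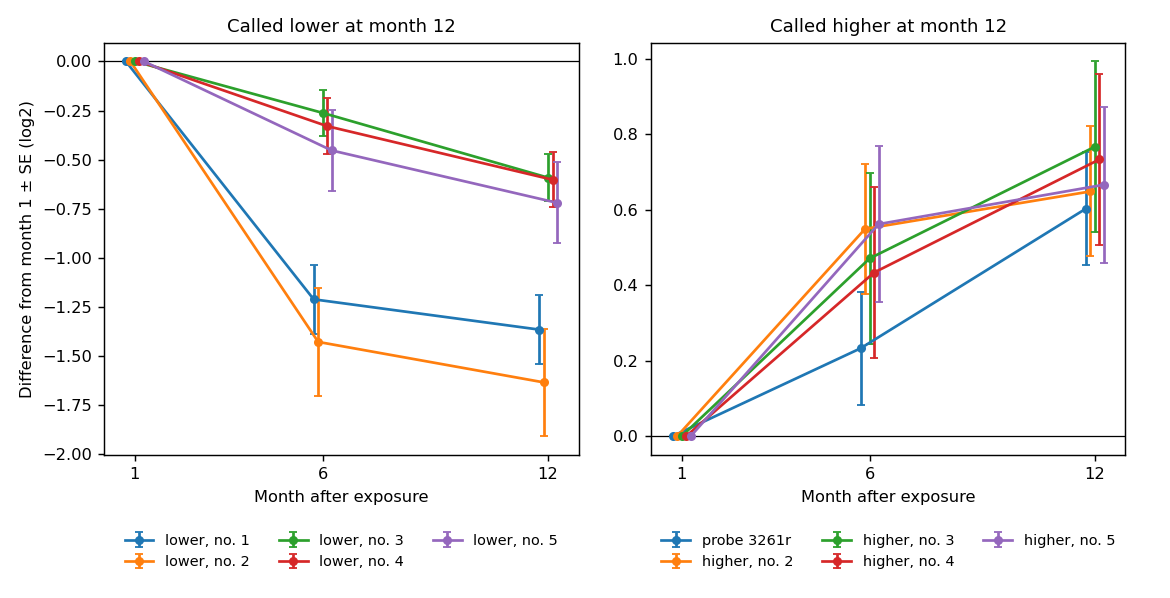
Difference from month 1 (y axis, log2, ± SE from the fit) at months 6 and 12 (x axis) for the 5 probes called lower (left) and the 5 called higher (right) at month 12 in crocidolite mice, numbered within each direction by p. The first and second downregulated probes had differences of -1.21 and -1.43 at month 6, against -1.36 and -1.63 at month 12.

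All 10 called probes had the same sign at month 6 as at month 12 and lay nearer to month 1 at month 6. Both differences use the same month 1 mice, and the probes had been chosen for the size of their change at month 12. The shared sign and the smaller size at month 6 were thus favoured in advance. The difference at month 6 was 38.6% to 88.7% of that at month 12 on the log2 scale, with a median of 62.2%. The highest shares were those of the first downregulated probe, at 88.7%, and the second downregulated probe, at 87.4%, and the lowest was that of probe 3261r.

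Month 12 against month 6 gave 1 called probe (0.135%), which was higher at month 12, and 54 at an unadjusted p under 0.05. It was ORB_1210500, with a lowest, median and highest level of 8.19, 9.04 and 9.92 in month 12 mice, against 7.52, 8.14 and 8.27 in month 6 mice. The log2 fold change was 0.92 ± 0.24 (SE; limma, adjusted p = 0.0676). Its levels in the month 1 mice were 7.87 to 8.97, and it was not called between month 12 and month 1 (log2 fold change 0.50, limma adjusted p = 0.372). It lost the call without replicate 1, 2, 4, 7 or 8 of month 12 and without replicate 1, 3, 4, 5, 6 or 7 of month 6, while leaving out month 12 replicate 5 or 6 gave 3 called probes. It also lost the call in 10 of 17 other alternatives, and over all fits its limma adjusted p ran from 0.0292 to 0.531. This probe was named after its values were seen.

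The DM mice, given no particles, were used to ask whether these changes were particular to crocidolite. All 24 DM arrays lay at slide positions A or C and all 24 crocidolite arrays at B or D, so each change below was taken within its own exposure. The DM mice moved the same way. The first downregulated probe had a lowest, median and highest level of 7.76, 8.02 and 8.62 in DM mice at month 12, against 9.50, 9.91 and 10.20 in DM mice at month 1. Its change between the months was -1.36 in crocidolite mice and -1.76 in DM mice, and the difference of these changes was 0.40 (95% interval -0.09 to 0.88). For the second downregulated probe the changes were -1.63 in crocidolite mice and -2.44 in DM mice, a difference of 0.80 (95% interval 0.04 to 1.57; limma, unadjusted p = 0.0399, adjusted p = 0.989).

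The rise of the second upregulated probe was 0.65 in crocidolite mice and 1.18 in DM mice, a difference of -0.53 (95% interval -1.01 to -0.05; limma, unadjusted p = 0.0315, adjusted p = 0.989). That of probe 3261r was 0.60 in crocidolite mice and 0.74 in DM mice, a difference of -0.14 (95% interval -0.56 to 0.28). Thus 2 of these 4 probes had intervals that did not include 0, with the smaller change in crocidolite mice. Neither passed the adjustment over 742 probes. These 2 probes, like the first downregulated probe, had also been named by earlier results on DM mice. A larger change in DM mice could thus have been favoured in advance.

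Over all 742 probes the change between months did not differ between crocidolite and DM mice for any probe past the adjustment (0 called, 0%; limma, smallest adjusted p = 0.989), and 25 probes (3.37%) had an unadjusted p under 0.05. The smallest p was that of probe 1288, whose change was -0.09 in crocidolite mice and 0.22 in DM mice (difference -0.31 ± 0.11, SE; limma, unadjusted p = 0.00399, adjusted p = 0.989). Its levels were 6.47 to 6.89 in crocidolite mice at month 12, against 6.59 to 6.99 at month 1, where the background correction flattens differences. Over 13 alternatives the difference ran from -0.70 to -0.28.

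The same held against 40 µg MWCNT, 23 of whose 24 arrays lay at positions B or D like those of crocidolite. No probe passed (0 called, 0%; limma, smallest adjusted p = 0.976), and 25 probes had an unadjusted p under 0.05. Probe 2733 had the smallest p, with a change of 0.25 in crocidolite mice and of -0.13 in 40 µg mice (difference 0.38 ± 0.13, SE; limma, unadjusted p = 0.00363, adjusted p = 0.976). Of its 24 spots per group, 8 were saturated in crocidolite mice at month 12 and 9 at month 1, against 10 in 40 µg mice at month 12 and 15 at month 1, so its level is only bounded on those spots. Over 14 alternatives the difference ran from 0.027 to 0.40, and it was lowest with trimmed-mean scaling after normexp.

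For the named probes the changes in crocidolite mice were near those in 40 µg mice. They were -1.36 in crocidolite and -1.09 in 40 µg mice for the first downregulated probe, and -1.63 in crocidolite and -1.34 in 40 µg mice for the second downregulated probe. They were 0.60 in crocidolite and 0.51 in 40 µg mice for probe 3261r, and 0.65 in crocidolite and 0.73 in 40 µg mice for the second upregulated probe. The 95% intervals of the differences were -0.76 to 0.21, -1.06 to 0.47, -0.33 to 0.51 and -0.57 to 0.40 in that order of probes, which does not exclude differences of moderate size.

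Against the mean of the other 5 exposures the precision was higher. The first downregulated probe changed by -1.36 in crocidolite mice and by -1.37 in the mean of the others, a difference of 0.01 (95% interval -0.37 to 0.39). The second downregulated probe changed by -1.63 in crocidolite mice and by -1.66 in the others, a difference of 0.03 (95% interval -0.56 to 0.62). The differences were 0.05 for probe 3261r (95% interval -0.27 to 0.38) and -0.22 for the second upregulated probe (95% interval -0.60 to 0.15). The sign of the differences of the first and second downregulated probes and of probe 3261r turned under other processing.

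No probe passed in this comparison (0 called, 0%; limma, smallest adjusted p = 0.995), and 15 of 742 (2.02%) had an unadjusted p under 0.05. The smallest p was that of ORB_1210232, with a difference of 0.12 ± 0.04 (SE; limma, unadjusted p = 0.00241, adjusted p = 0.995). It was one of the 12 probes past the adjusted p between the months but short of the fold limit. Its change was 0.12 in crocidolite mice (limma, adjusted p = 0.0726) and -0.02 to 0.01 in the other 5 exposures. Of those 12 probes, 11 had the same sign in all 5 other exposures, and ORB_1210232 was the exception. This probe was dim, above threshold on 6 of 8 crocidolite arrays at month 12 and on 3 of 8 at month 1. Its difference from the other exposures ran from 0.12 to 0.67 over 13 alternatives.

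All 10 called probes had the same sign in each of the other 5 exposures as in crocidolite mice. Over all 742 probes the sign in crocidolite mice was that of DM mice for 63.3%. It was that of the mean of the other 5 exposures for 71.6%. The share of all probes with the same sign in each of the 5 was not counted. Of the 10, 7 were also called in DM mice, where 2.96% of probes were called, 4 in 40 µg mice (0.809% called), and 6 in the mean of the other 5 exposures (2.02% called). The differences from the mean of the other 5 had 95% intervals that included 0 for all 10 probes. These intervals reached 0.26 to 0.59 to either side on the log2 scale, so differences smaller than that could not be told from 0. The intervals were not adjusted for 742 probes, and passing the adjustment would take larger differences.

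**Figure D4:**
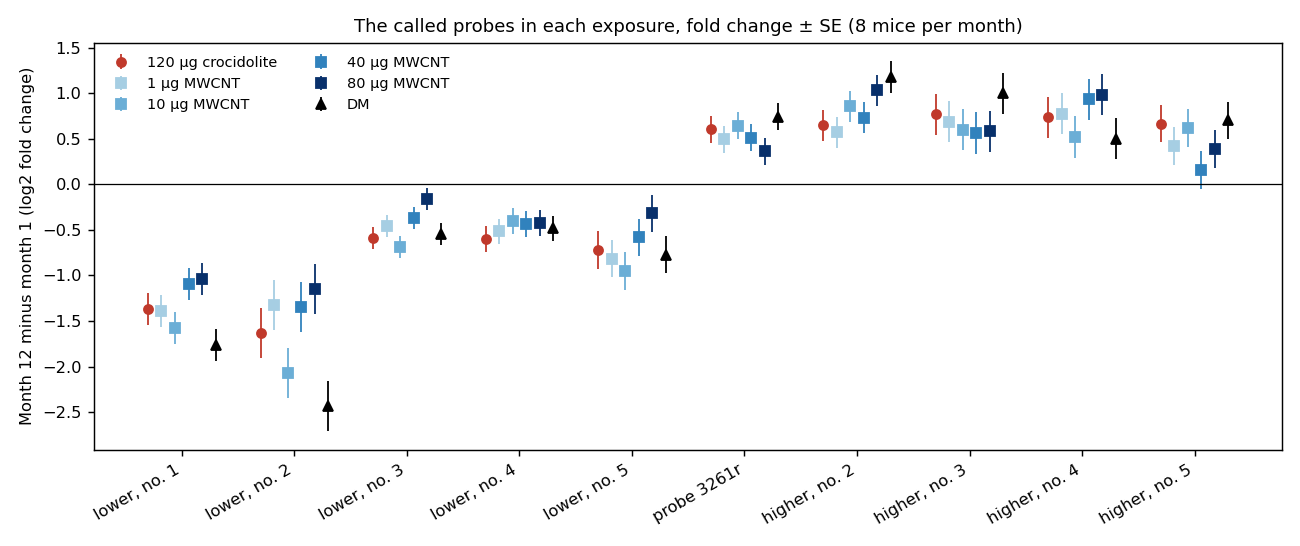
Difference between month 12 and month 1 (y axis, log2 fold change ± SE, 8 mice per month) of the 10 probes called in crocidolite mice (x axis, named or numbered within each direction by p), in each of the 6 exposures. All 60 points lie on the side of 0 given by crocidolite.

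Read the other way, the 22 probes called in DM mice were looked at in crocidolite mice. The changes in crocidolite mice had not been used to choose them, although the fit pooled the variance over all arrays, crocidolite included. All 22 had the same sign in crocidolite mice, 14 had an adjusted p under 0.10 there and 7 were called, beside 2.96% and 1.35% of all probes. The 15 probes called higher in DM mice (2.02%) had a median change of 0.50 in crocidolite mice and of 0.73 in DM mice. The 7 called lower (0.943%) had a median change of -0.57 in crocidolite mice and of -0.77 in DM mice. All 22 lay nearer to 0 in crocidolite mice than in the DM mice in which they had been chosen for their size. Over all 742 probes the sign was shared by 63.3%. The exposures were scanned on shared days. The earliest scan days held month 1 arrays of every exposure and no month 12 array of any. Whether this imbalance added to the signs and changes shared between exposures was not tested.

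Of the 34 probes called between the months in 80 µg mice (4.58%), the exposure with the most calls, 33 had the same sign in crocidolite mice. In crocidolite mice 6 of them had an adjusted p under 0.10 and 4 were called. With no fold limit, 148 of 742 probes passed the adjusted p in 80 µg mice. That number was 46 in DM, 22 in 1 µg, 18 in 10 µg and 23 in 40 µg mice, beside 22 in crocidolite mice. It was 261 in the mean of the other 5 exposures, where the median SE was 0.05, against 0.11 in crocidolite mice. Over 742 probes the change in crocidolite mice and that in the mean of the other 5 exposures correlated with Pearson's r = 0.84 and Spearman's rho = 0.65. This is a correlation across probes of the same arrays, which are not independent replicates. The exposures also shared scan days that were unbalanced between the months. Without the 10 called probes r was 0.78. With DM mice alone r was 0.63, and with 40 µg mice it was 0.66.

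**Figure D5:**
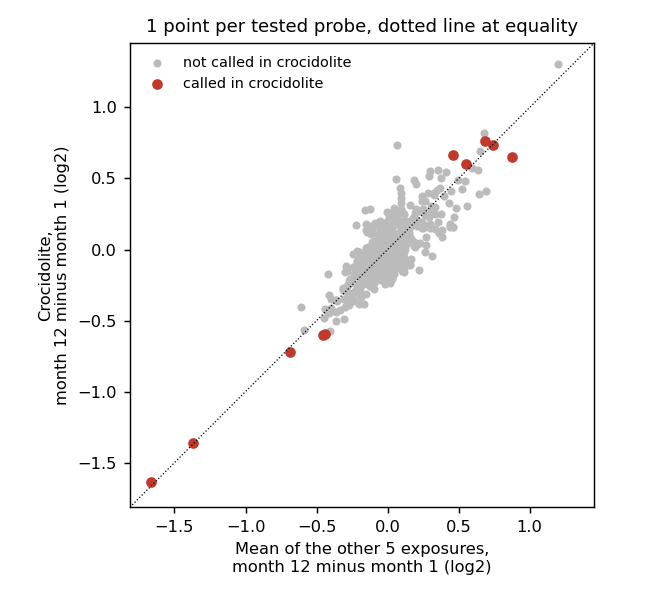
Difference between month 12 and month 1 in crocidolite mice (y axis, log2) against the mean of that difference in the other 5 exposures (x axis, log2), 1 point per tested probe, with the 10 called probes in red and a dotted line at equality. The first and second downregulated probes, at the lower left, lie within 0.03 of the line.

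Whether mice low in one probe were low in another was looked at within each month, so that the difference between months could play no part. Over the 8 month 12 mice, the first and second downregulated probes had Pearson's r = 0.01 and Spearman's rho = -0.05 (exact permutation p = 0.985 and 0.916). Over the 8 month 1 mice they had r = 0.40 and rho = 0.65 (exact permutation p = 0.328 and 0.0911). Leaving out the 2 mice farthest from the median of the first downregulated probe changed r to 0.69 at month 12 and to 0.14 at month 1, so neither value was stable.

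Probe 3261r and the second upregulated probe had r = 0.40 and rho = 0.20 at month 12 (exact permutation p = 0.329 and 0.631). At month 1 they had r = 0.62 and rho = 0.56 (exact permutation p = 0.104 and 0.154). Without the 2 farthest mice r was 0.45 at month 12 and 0.25 at month 1. Of the 4 relations computed none passed, with Benjamini-Hochberg adjusted p from 0.416 to 0.985 for r and from 0.308 to 0.916 for rho. The probes that moved together between the months were thus not shown to vary together among mice of the same month, at 8 mice each.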

How the data were processed

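The authors isolated total RNA from the blood of each mouse, labelled its low-molecular-weight fraction with 1 fluorescent dye and scanned custom arrays, from which spots were extracted with GenePix. The deposited scanner files give linear intensity values that were not normalized, as medians over each spot and over the area around it. The deposited value table holds log2 intensity values of 1262 mouse probes, which could be rebuilt from the scanner values as a spot mean on the log2 scale, after background subtraction, plus 1 constant per array (-0.91 to 1.66). From the scanner values, background was corrected here with limma 3.58.1 in R 4.3.3 (normexp, offset 50), spots marked bad were left out, the 3 spots of a probe were averaged on the log2 scale and arrays were quantile normalized. The offset compresses the changes of dim probes.

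The threshold of an array was 5 SD of its 21 empty spots above their 10% trimmed mean, on background-subtracted intensities, which came to 19.5 to 28.5 units on the 16 crocidolite arrays of months 12 and 1. The study's own threshold rested on control spots and on the space between spots. Tests were two-sided, by limma (lmFit and eBayes) on 18 group means over 144 arrays, with p-values adjusted over 742 probes. The comparisons of a change between 2 exposures had no fold limit. Precision is limited by the number of arrays, with a median SE of 0.11 (log2) for 1 group against another. The fit was tested on simulated data.

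The text names the 2 called probes with the smallest p in each direction, the probe with the smallest p where a comparison of exposures called none, and probes 1084, 1098, 1485 and 1068. Probes 1084 and 1098 are the first and second downregulated probes by p, 3261r and 1485 the first and second upregulated ones, and 1068 the near-limit probe. The comparisons, these probes and the alternatives were chosen with earlier results of these data known. Alternatives covered the offset, other background corrections, scalings and filters, the authors' values, terms for slide, scan day, position and array brightness, the groups fitted, the methods' ANOVA, the thresholds and each array left out. A second scan of 1 slide at another gain was not used. Among the crocidolite arrays of months 12 and 1, only month 12 replicate 6 was read from a scan labelled redip. It had the fewest probes above threshold of these arrays, 724.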

Additional observations from a re-analysis of the deposited data

Results flagged for a closer look

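Within the crocidolite groups of months 12, 6 and 1, the levels of the 2 leading downregulated probes, the 2 leading upregulated probes and the near-limit probe, array brightness and the number of probes above threshold were searched for a mouse far from the other 7 of its group, by Dixon's 95% critical value for the gap over the range. Of 21 sets of 8 values searched, 3 passed it. Chance alone passes about 1 in 20.

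The array of month 1 replicate 4 had a brightness of 7.01 on the log2 scale, against 6.61 for the next, a gap of 0.643 of the range. The same array had 1055 mouse probes above threshold, against 862 for the next (0.656 of the range), and it had 12 spots marked bad. Its correlation with the other month 1 arrays averaged 0.99. Without it 13 probes were called between month 12 and month 1, the first and second downregulated probes among them.

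The near-limit probe was at 9.87 in month 6 replicate 6, against 10.20 for the next lowest of the 8 month 6 mice (0.536 of the range). Without that mouse its log2 fold change between month 6 and month 1 was 0.64 (limma, adjusted p = 0.000326), past the fold limit of 1.5.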

How the results depend on the processing

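Between month 12 and month 1 in crocidolite mice, 13 of 17 alternatives kept the count within 1.5 times of 10. The others gave 21 called probes with background subtraction and trimmed-mean scaling, 21 in the deposited table, 6 with scan day as a term and 22 with no fold limit, and leaving out each array in turn gave 4 to 13. Between month 6 and month 1 the count was 2, and it was 4 with background subtraction and quantile normalization, 8 with trimmed-mean scaling after normexp, 26 with subtraction and trimmed-mean scaling, 17 in the deposited table, 4 with array brightness as a term, 6 with the brightness of the probes above threshold on all arrays as a term (chosen after seeing the data) and 8 with no fold limit. Leaving out each array gave 2 to 3. Between month 12 and month 6 the count was 1, it was 2 with no fold limit, and it was 0 with background subtraction under either scaling, with trimmed-mean scaling after normexp, in the deposited table, with no filter, with scan day or the added brightness as a term, with the compared groups alone, with the methods' ANOVA and at an adjusted p under 0.05. Leaving out each array gave 0 to 3. On the trimmed-mean scales and in the deposited table the median of all probes shifted by 0.07 to 0.11 between months 12 and 1, by 0.25 to 0.27 between months 6 and 1, and by -0.19 to -0.13 between months 12 and 6. The causes were not tested.

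The 3 comparisons of the change in crocidolite mice with that in other exposures stayed at 0 called in all 14 alternatives and with each of 16 arrays left out, so these ranges are 0 to 0. Array brightness kept its sign in all 3 alternatives, and its difference was -0.09 to -0.0045 with an array left out. The difference in probes above threshold, -11.8, was 1 with the threshold at 3 SD and -27.5 to 20.3 with an array left out.

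For probes named in the text, 976 of 1033 single values kept their direction and their side of the threshold, 11 lost a call, 23 gained one and 23 turned their sign. The turned values were all differences near 0 against other exposures. Against the mean of the other 5, the first downregulated probe was at -0.00047 with subtraction and quantile normalization, at -0.00087 with position as a term, and at -0.065 to 0.059 with an array left out. The second downregulated probe was at -0.070 with trimmed-mean scaling after normexp, -0.075 with subtraction and trimmed-mean scaling, -0.056 in the deposited table, -0.024 with slide as a random block, -0.025 with scan day as a term, and -0.073 to 0.11 with an array left out. Probe 3261r was at -0.046, -0.042 and -0.023 on those 2 scales and in the deposited table, and the near-limit probe at 0.015 in the deposited table. Against 40 µg MWCNT, the near-limit probe was at 0.018, 0.027 and 0.039 on those 2 scales and in the deposited table, and at -0.11 to 0.0092 with an array left out. No paired analysis was possible because each exposure and month had its own mice, and the labels give the mice no replicate numbers. Dim probes limit what can be seen: 520 of 1262 mouse probes were not tested, and differences of those near the threshold are compressed by the offset.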

Other observations

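The arrays also carry probes of other names, outside the table of mouse probes, and crocidolite months 12 and 1 were compared on these too, a test chosen after seeing the data. Of 2171 such probe names with 3 spots each, 933 passed the same filter. Of these, 1 was called between month 12 and month 1 (0.107%), beside 1.35% of the mouse probes. With no fold limit 18 passed the adjusted p (1.93%), beside 2.96% of the mouse probes, while 103 had an unadjusted p under 0.05. It was probe ORB_1210129, named after its value was seen, at 12.03 to 12.45 in month 12 mice and 12.43 to 13.06 in month 1 mice, with a log2 fold change of -0.59 ± 0.10 (SE; limma, adjusted p = 1.39e-05). Its change in the mean of the other 5 exposures was -0.46. No probe of these names passed for a different change in crocidolite than in DM mice or in the mean of the other 5 exposures (0 of 933 in limma, with 13 at an unadjusted p under 0.05 in each). The files used here do not say which species or miRNA these probes belong to.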
